A study of Mus musculus with 26 samples.

Results

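The comparison described here asks in which genes the loss of the kinase mTOR had unequal effects in 2 kinds of spleen dendritic cells. It is the difference between 2 genotype effects in the spleen: the change from wild-type to mTOR-deficient CD8a dendritic cells (DCs), minus the change from wild-type to mTOR-deficient CD11b DCs. A gene entered it with a normalized count of 10 or more in 2 or more of the 8 spleen libraries, which held for 12049 of the 23420 gene symbols in the table. The 8 libraries are part of 26 from spleen and lung. The mutant mice, labelled mTORΔAPC and called KO, were described as lacking mTOR in antigen-presenting cells, and the controls were their wild-type littermates (WT). There were 4 groups of 2 libraries each, CD8a WT, CD8a KO, CD11b WT and CD11b KO, all from mice at steady state with no treatment. The cells were sorted by flow cytometry as CD8a DCs and as CD11b+ DCs. The promoter that drives the deletion, the allele, the strain, the age of the mice and whether animals were pooled are not given in the sources used here. Nothing in the labels says that the libraries of a group came from separate animals. The p-values thus measure the spread between samples, which may be technical in part. That spread was estimated over all 26 libraries, lung included. The spleen groups give 4 of its 16 residual degrees of freedom.

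mTOR is a kinase that works in 2 complexes. Complex 1 couples amino acids and growth factors to protein, lipid and nucleotide synthesis and restrains autophagy and lysosome formation, and complex 2 acts on AKT and related kinases. Splenic CD8a DCs, also called cDC1, depend on the transcription factor IRF8 and are known for cross-presenting antigen to CD8 T cells. CD11b DCs, or cDC2, carry SIRPα and mainly present to CD4 T cells. The red pulp of the spleen also holds macrophages that take up aged red blood cells and recycle their iron, under the transcription factor SPI-C.

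The unit was the normalized count, a read count divided by a factor for the depth of its library, and log2 values are log2(normalized count + 1). A difference of -1 means that the KO-to-WT ratio in CD8a DCs was 2-fold lower than that in CD11b DCs. Errors after ± are standard errors from limma, a linear model fitted across all genes and all 26 libraries. A gene is said to rise, fall or differ when its Benjamini-Hochberg adjusted p was under 0.05, and every adjusted p below is from this fit. Single-gene values are listed as library 1 and library 2 of each group. The libraries held 7.37 to 10.1 M counted reads, with 13464 to 13870 genes above 0, and the median standard error of a difference was 0.37.

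The subset labels matched their defining genes. Xcr1, a chemokine receptor of cDC1, lay between 6363 and 7809 in the 4 CD8a libraries and between 118 and 259.9 in the 4 CD11b libraries. Cd4, carried by many splenic cDC2, lay at or below 442 in the CD8a libraries and at or above 1890.5 in the CD11b libraries. The targeted gene Mtor was at 384 and 427 in CD8a WT, 40.0 and 68.5 in CD8a KO, 396 and 355 in CD11b WT, and 63.0 and 82.6 in CD11b KO. It fell by 2.93 on the log2 scale in CD8a DCs and fell by 2.36 in CD11b DCs (adjusted p = 5.37e-08 and 2.31e-05), and the difference of -0.57 ± 0.38 did not pass (adjusted p = 0.708, 95% interval -1.35 to 0.22).

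The CD8a WT libraries stood apart in their red pulp macrophage signal, and they enter every difference between subsets given below. The summed normalized count of 24 red pulp macrophage markers was 41526 and 70959.7 in CD8a WT libraries 1 and 2, and between 7599.5 and 13749 in the other 6 libraries. All 24 were above 0 in both CD8a WT libraries, and at most 1 was at 0 in any of the others. The sum of 26 monocyte and macrophage markers was 28546 and 42697 in CD8a WT and 9968 and 11049.8 in CD8a KO, but between 31343 and 46109 in the CD11b libraries. Erythroid and platelet markers summed to 1328 in CD8a WT library 2 and to between 94.0 and 357 elsewhere, with 4 to 8 of the 14 at 0. Eosinophil, basophil and mast cell markers summed to 818 and 1876 in CD8a WT and to at most 117 elsewhere. Of these 9 markers, 6 and 5 were at 0 in CD8a WT libraries 1 and 2, so few genes carried the sums. Only 3 of them were tested, and 1 fell in CD8a DCs. In bulk RNA, fewer cells of a type and less RNA per cell cannot be told apart. The part of a changed cell mixture in the differences below was not tested.

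Sex-linked genes also followed genotype. The 4 Y-linked genes summed to 977 and 3049 in CD8a KO and to 932 and 3295 in CD11b KO, against at most 0.857 in WT. Xist, the RNA of the inactive X chromosome, was at 5608 and 4366 in CD8a WT, 3619.7 and 12.0 in CD8a KO, 5058 and 4728 in CD11b WT, and 3092 and 21.4 in CD11b KO. Both KO libraries numbered 2 were thus high for Y-linked genes and low for Xist, while both KO libraries numbered 1 held both. Within a subset the KO libraries were therefore not repeats of 1 sample. Of 9 tested sex-linked genes 4 rose in each subset, and none differed between subsets. Sex and genotype cannot be told apart in these libraries. KO libraries of the same number were alike in these genes across the subsets. Whether they came from the same mice is not given in the sources used here, and the fit treated all libraries as independent.

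**Figure D1:**
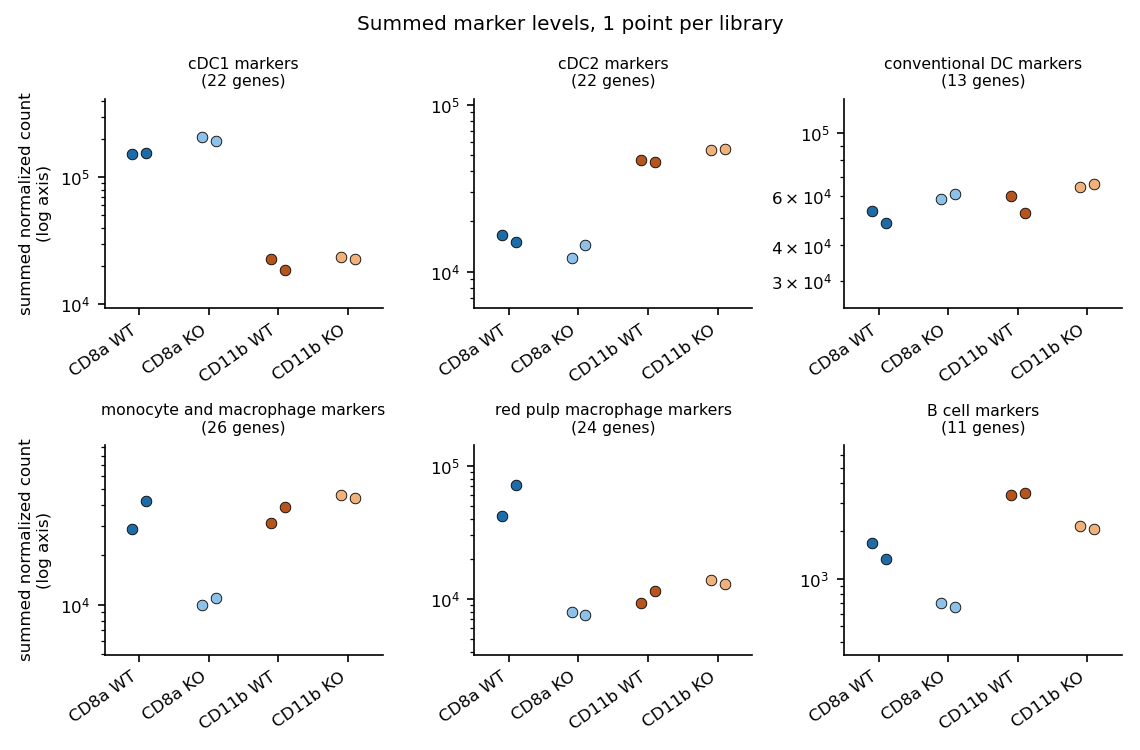
Summed normalized counts of 6 marker lists (log axis) in each of the 8 libraries, 1 point per library, with the groups on the horizontal axis. The red pulp macrophage sum is at 41526 and 70959.7 in CD8a WT and at or below 13749 in the other libraries, while the cDC1 sum is at or above 153445 in all 4 CD8a libraries.

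Far more genes had a lower KO effect in CD8a DCs than in CD11b DCs than had a higher one. Of 12049 genes 325 differed: 300 (2.49%) had a lower KO effect in CD8a DCs and 25 (0.207%) a higher one, and 1315 had an unadjusted p under 0.05. The 300 lower genes had a median difference of -2.83 on the log2 scale, made of a median CD8a effect of -2.31 and a median CD11b effect of 0.45. The 25 higher genes had a median difference of 1.13, made of 0.82 and -0.43. These medians describe genes chosen by the same test, and the median over all genes was 0.01. A difference beyond 2-fold was reached by 277 of the lower and 15 of the higher genes, and one beyond 4-fold by 197 and 9. Fitted on the 8 spleen libraries alone, which leaves 4 residual degrees of freedom in place of 16, the test called 209 genes.

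Most lower genes fell in CD8a DCs. In CD8a DCs 492 genes fell (4.08%) and 203 rose (1.68%), and in CD11b DCs 31 fell (0.257%) and 174 rose (1.44%). Among the 300 lower genes, 234 fell in CD8a DCs without a call in CD11b DCs, 34 rose in CD11b DCs without a call in CD8a DCs, and 9 did both. A further 21 passed in neither single effect, and 2 fell in both subsets but more in CD8a DCs. Among the 25 higher genes, 16 rose in CD8a DCs, 1 fell in CD11b DCs and 8 passed in neither. The CD11b counts rest on single libraries more than the CD8a counts do. The 205 CD11b calls became 28, 47 and 66 without CD11b KO library 2, CD11b KO library 1 and CD11b WT library 2, and of the 34 genes that rose in CD11b DCs without a CD8a call 9, 14 and 16 were still called as rising there. The 695 CD8a calls became 372 without CD8a KO library 1 and 429 without CD8a KO library 2.

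The 300 lower genes were chosen by the values compared next, so these counts describe them and are not separate evidence. In WT, 225 of the 300 lower genes had a higher mean in CD8a WT than in CD11b WT. In the KO, 270 had a lower mean in CD8a than in CD11b. The share over all genes was not counted for either. CD8a WT library 2, the one with the larger red pulp sum, exceeded library 1 for 237 of the 300, against 49.2% of all genes tested. Without that library 260 genes differed, of which 207 were among the 325, and without CD8a WT library 1 there were 376, of which 267 were shared.

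**Figure D2:**
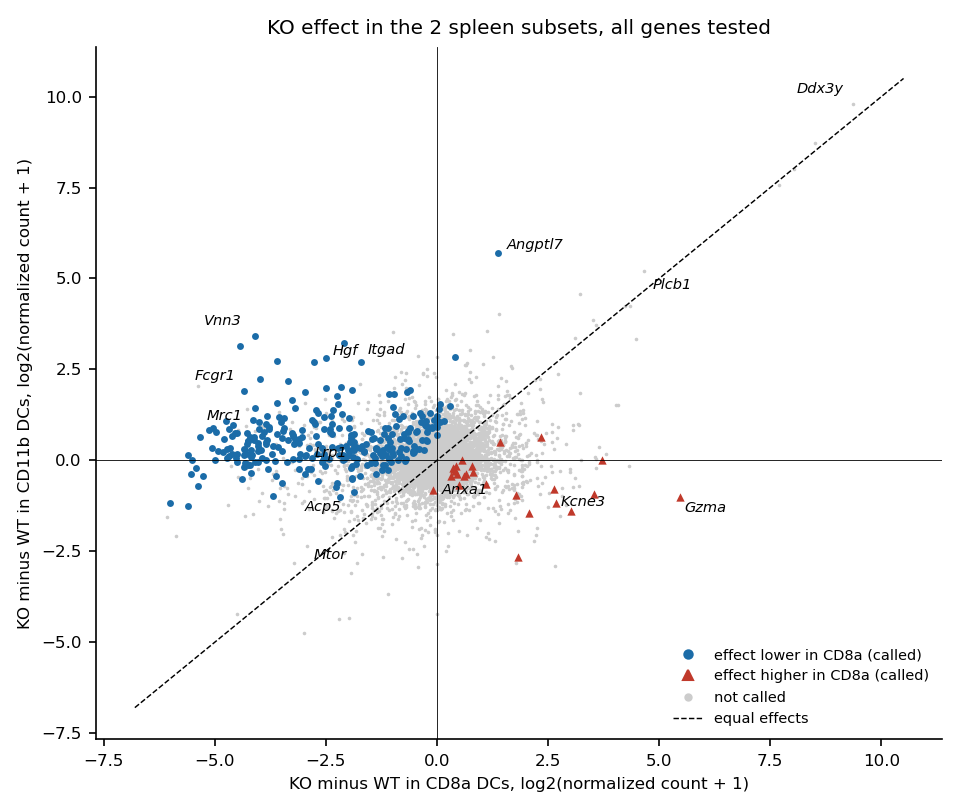
KO minus WT on the log2(normalized count + 1) scale in CD8a DCs (horizontal) and CD11b DCs (vertical) for all 12049 genes, with a dashed line where both effects are equal. The 300 lower genes (blue circles) lie above the line, mostly at the left near 0 on the vertical axis, and the 25 higher genes (red triangles) lie below it.

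The genes that moved in opposite directions included receptors of macrophages and monocytes. Mrc1 encodes the mannose receptor, an endocytic lectin, and lies on chromosome 2 (mm10, 14229414-14332023). Its normalized count was 1097 and 1658 in CD8a WT, 81.0 and 57.6 in CD8a KO, 127 and 134 in CD11b WT, and 251 and 193 in CD11b KO. Both CD8a KO libraries lay below every other library, both CD8a WT libraries lay above every other, and both CD11b KO libraries lay above CD11b WT. The fall of 4.28 in CD8a DCs (adjusted p = 5.82e-13) and the rise of 0.75 in CD11b DCs (adjusted p = 0.0384) gave a difference of -5.04 ± 0.26 (adjusted p = 2.99e-11), the smallest p of all genes.

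Csf1r, the receptor for the macrophage growth factors CSF1 and IL-34, was at 3777 and 5495 in CD8a WT, 705 and 869 in CD8a KO, 3116 and 3509 in CD11b WT, and 6566 and 5566 in CD11b KO. The KO libraries lay below WT in CD8a DCs and above WT in CD11b DCs, with no overlap in either subset. It fell by 2.54 in the first and rose by 0.87 in the second, a difference of -3.41 ± 0.22 (adjusted p = 6.01e-10). Lrp1, a scavenger receptor of the LDL receptor family, was at 713 and 928 in CD8a WT, 211 and 215 in CD8a KO, 508 and 492 in CD11b WT, and 903 and 731 in CD11b KO, which is the same order of groups within each subset. Its difference was -2.63 ± 0.19 (adjusted p = 4.61e-09). Fcgr1, the high-affinity IgG receptor CD64 that marks macrophages, was at 77.1 and 158 in CD8a WT, 1.86 and 9.61 in CD8a KO, 7.18 and 22.0 in CD11b WT, and 55.0 and 45.7 in CD11b KO. Counts were low in CD8a KO and CD11b WT, and the standard error was larger than that of Csf1r, with a difference of -6.24 ± 0.68 (adjusted p = 1.85e-06).

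Among the other genes called in opposite directions, Ms4a6d, a membrane protein of the MS4A family found in macrophages, differed by -3.99 ± 0.35. Fndc3b, a membrane protein with fibronectin-type domains, was at 263 and 197 in CD8a WT, 103 and 126 in CD8a KO, 69.1 and 55.0 in CD11b WT, and 200.4 and 149.6 in CD11b KO and differed by -2.46 ± 0.25. Igsf8, an immunoglobulin superfamily partner of tetraspanins, differed by -1.45 ± 0.18. Vnn3, a vanin related to pantetheinases, was at 45.4 and 11.2 in CD8a WT, 0.931 and 0 in CD8a KO, 0 and 3.39 in CD11b WT, and 21.8 and 21.4 in CD11b KO. Vnn3 was thus near 0 in both CD8a KO libraries and in CD11b WT, and its difference of -7.52 ± 0.99 depends on the pseudocount. Adjusted p was 5.23e-08, 4.76e-07, 8.90e-06 and 2.36e-05 for these 4 genes in turn. Hgf, the hepatocyte growth factor, was called in the same way but had no library above 20.4. The differences of these 9 genes passed with any 1 library left out, but their opposite single effects did not. Without CD11b KO library 1 both effects passed for 2 of them (Fndc3b and Igsf8), without CD11b KO library 2 for 4 (Csf1r, Fndc3b, Lrp1 and Ms4a6d), and in the fit on 8 libraries for 1 (Csf1r). Hgf did not differ in that last fit (adjusted p = 0.117).

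**Figure D3:**
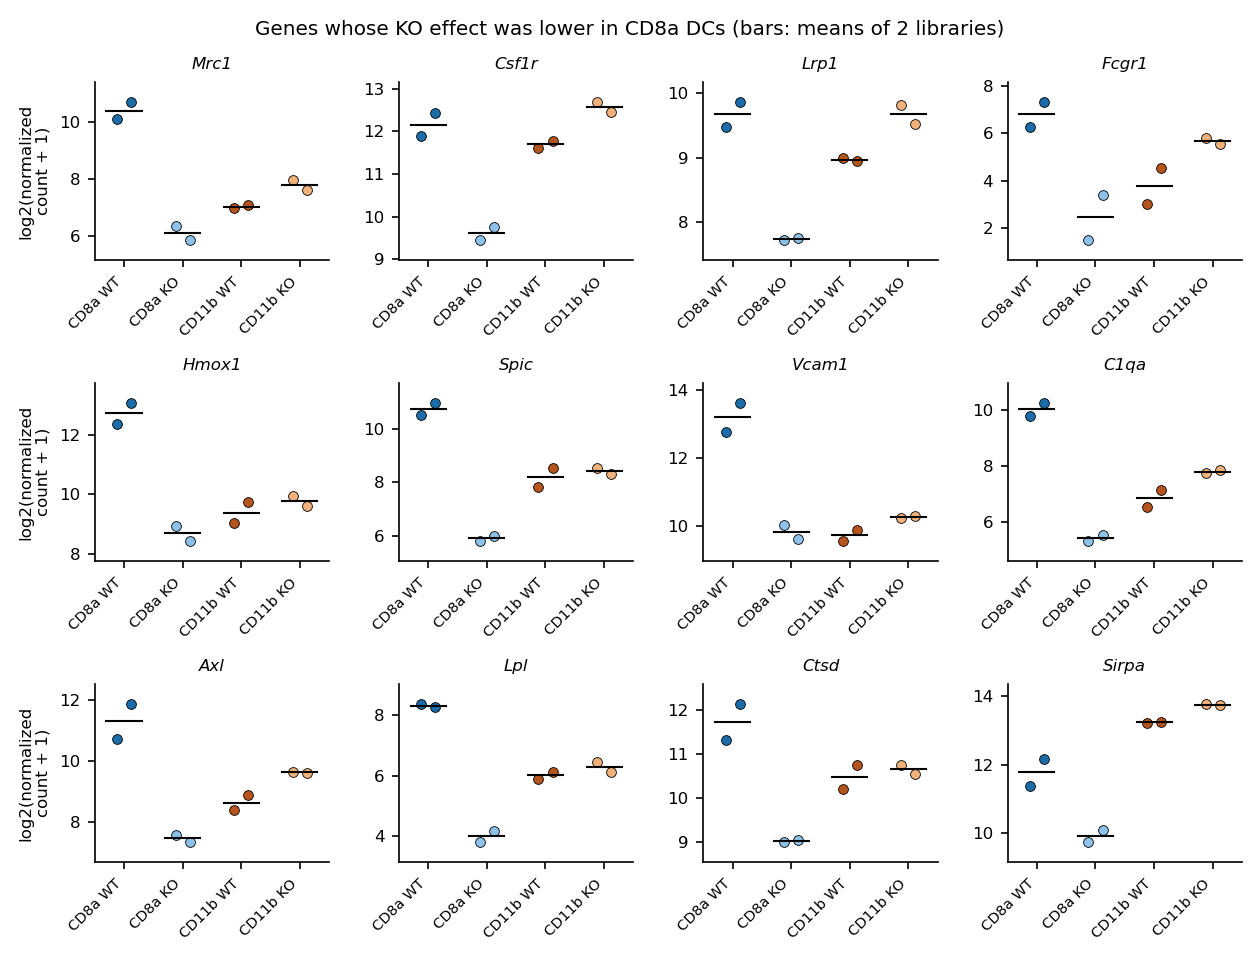
Levels of 12 genes with a lower KO effect in CD8a DCs, as log2(normalized count + 1), 1 point per library and a bar at the mean of each group of 2. In each panel the CD8a KO points lie below CD8a WT. In the first 4 panels the CD11b KO points also lie above CD11b WT, as for Csf1r at 6566 and 5566 against 3116 and 3509. The same order holds for Vcam1, C1qa, Axl and Sirpa, but the CD11b rise passed only in the first 4.

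Of 25 tested monocyte and macrophage markers, 19 differed, all lower, with a list median of -3.41 against 0.01 over all genes. In CD8a DCs 20 fell, with a median of -2.55, and in CD11b DCs 3 rose and none fell, with a median of 0.35. With CD8a WT library 1 or 2 left out, 18 of the 25 were lower. Together with the red pulp list, 45 tested genes held 33 lower calls, so 267 of the 300 lower genes were on neither list. Fcgr3, the low-affinity IgG receptor CD16, was at 284 and 382 in CD8a WT, 14.0 and 28.8 in CD8a KO, 113 and 189.6 in CD11b WT, and 198 and 163 in CD11b KO. It differed by -4.26 ± 0.34 (adjusted p = 1.56e-08), and its CD8a KO libraries were below the 6 others. Emr1 encodes the macrophage surface protein F4/80 and was at 1048 and 2080.1 in CD8a WT, 149 and 197 in CD8a KO, 2611 and 3410.1 in CD11b WT, and 4192 and 4101 in CD11b KO. The CD11b libraries exceeded both CD8a groups here, and the difference was -3.57 ± 0.30 (adjusted p = 3.79e-08).

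Among red pulp macrophage markers all 24 tested members had a negative difference and 18 passed, with a median of -4.70. In CD8a DCs 22 of the 24 fell (median -4.31), while in CD11b DCs 1 rose and the median was 0.25. Several members of this list were already known from these libraries as CD8a falls, so the list is not independent evidence of its direction. With CD8a WT library 1 or 2 left out, 17 were lower, with medians of -5.12 without library 1 and -4.29 without library 2. Hmox1 encodes heme oxygenase 1, which breaks down heme, and lies on chromosome 8 (75093618-75100593). It was at 5364 and 8639.6 in CD8a WT, 494 and 347 in CD8a KO, 525 and 848 in CD11b WT, and 992 and 779 in CD11b KO, a difference of -4.43 ± 0.33 (adjusted p = 4.61e-09). Both CD8a WT libraries stood above the other 6, which lay between 347 and 992. Axl, a receptor tyrosine kinase that recognizes dying cells through GAS6, was at 1699 and 3728 in CD8a WT, 189 and 162 in CD8a KO, 336 and 466 in CD11b WT, and 796 and 777 in CD11b KO and differed by -4.83 ± 0.39. Lpl, the lipase that frees fatty acids from lipoproteins, was at 328 and 305 in CD8a WT, 13.0 and 16.8 in CD8a KO, 58.3 and 68.6 in CD11b WT, and 87.0 and 68.0 in CD11b KO and differed by -4.61 ± 0.37. For both, CD8a KO lay below all other libraries (adjusted p = 1.47e-08 and 1.56e-08). Spic, the transcription factor of red pulp macrophages on chromosome 10 (88675269-88683023), was at 1460.3 and 1989.9 in CD8a WT, 55.8 and 63.6 in CD8a KO, 228 and 376 in CD11b WT, and 369.8 and 317 in CD11b KO, with a difference of -5.04 ± 0.64 (adjusted p = 1.48e-05). Vcam1, an adhesion molecule of these macrophages on chromosome 3 (116110020-116129688), was at 7009.6 and 12464 in CD8a WT, 1058 and 799.8 in CD8a KO, 766 and 946 in CD11b WT, and 1226 and 1268 in CD11b KO and differed by -3.89 ± 0.57 (adjusted p = 1.00e-04). Spic was chosen after its values were seen.

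Of 16 iron and heme genes tested, 6 were lower and none higher, with a median difference of -0.88. Slc40a1, the iron exporter ferroportin, was at 8282 and 15847 in CD8a WT, 677 and 536 in CD8a KO, 856 and 1219.7 in CD11b WT, and 1646 and 1348 in CD11b KO. Its CD8a WT libraries were far above the 6 others, and the difference was -4.79 ± 0.80 (adjusted p = 5.31e-04). Blvrb, a biliverdin reductase, differed by -2.86 ± 0.30, and Slc48a1, a heme transporter, by -1.13 ± 0.22 (adjusted p = 1.24e-06 and 0.00302). Slc48a1 was at 1135 and 1239.7 in CD8a WT, 592 and 529.6 in CD8a KO, 699.8 and 625 in CD11b WT, and 689 and 675 in CD11b KO, so that the CD8a KO libraries were at a level close to the CD11b libraries.

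Of 16 complement components and receptors tested, 6 were lower and none higher (median -2.52). C1qa, C1qb and C1qc, which encode the chains of C1q, differed by -5.57 ± 0.56, -4.72 ± 0.50 and -4.67 ± 0.58, and C3, the central component, by -5.18 ± 0.67. C1qa was at 894 and 1224 in CD8a WT, 39.1 and 45.6 in CD8a KO, 91.5 and 141 in CD11b WT, and 213 and 233 in CD11b KO. Its 2 CD11b KO libraries were above CD11b WT, although that rise of 0.97 did not pass (adjusted p = 0.271). C3 was at 116 and 380.1 in CD8a WT, 31.6 and 8.41 in CD8a KO, 73.6 and 163 in CD11b WT, and 338 and 323 in CD11b KO, with CD8a KO below and CD11b KO above the WT mean of its subset. Of 26 scavenger, lectin and efferocytosis receptors, 13 were lower and none higher (median -2.60). Clec4a3, an inhibitory C-type lectin of the DCIR family, was at 267 and 422 in CD8a WT, 18.6 and 16.8 in CD8a KO, 740.2 and 980.1 in CD11b WT, and 1082 and 831 in CD11b KO and differed by -4.33 ± 0.27 (adjusted p = 4.83e-10). Its highest levels were in the CD11b libraries of both genotypes.

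Other lower genes were named for their small p. Pilrb1, an activating receptor of the PILR pair, was at 271 and 455 in CD8a WT, 6.52 and 6.00 in CD8a KO, 115 and 234 in CD11b WT, and 196 and 168 in CD11b KO. It fell to under 7 in both CD8a KO libraries, with a difference of -5.75 ± 0.40 (adjusted p = 2.09e-09). Niacr1, the nicotinic acid and hydroxybutyrate receptor now named Hcar2, was at 299 and 363 in CD8a WT, 14.9 and 8.41 in CD8a KO, 94.2 and 80.4 in CD11b WT, and 192 and 176 in CD11b KO and differed by -5.83 ± 0.41 (adjusted p = 2.09e-09). The CD11b KO libraries of Niacr1 were above CD11b WT, and that rise of 1.07 did not pass (adjusted p = 0.0593). Cd302, a C-type lectin receptor, differed by -3.26 ± 0.25, and Dok3, an adaptor that dampens immune receptor signalling, by -3.67 ± 0.29. Pld3, a lysosomal exonuclease, was at 1167 and 1562 in CD8a WT, 108 and 64.9 in CD8a KO, 118 and 256 in CD11b WT, and 324 and 304 in CD11b KO and differed by -4.85 ± 0.38. Sepp1 encodes selenoprotein P, a selenium carrier now named Selenop, and was at 1445 and 2288 in CD8a WT, 187 and 233 in CD8a KO, 629 and 642 in CD11b WT, and 676 and 628 in CD11b KO, with a difference of -3.15 ± 0.26. The effects of Sepp1 were -3.12 in CD8a and 0.03 in CD11b DCs. Adjusted p was 8.65e-09, 1.06e-08, 1.06e-08 and 2.76e-08 for Cd302, Dok3, Pld3 and Sepp1. Igf1, insulin-like growth factor 1 and an upstream activator of mTOR, was at 433 and 653 in CD8a WT, 14.9 and 26.4 in CD8a KO, 53.8 and 83.8 in CD11b WT, and 71.0 and 73.8 in CD11b KO. It differed by -4.78 ± 0.60 and was chosen after its values were seen.

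Among 26 tested genes that take up, store or export lipids, 9 were lower and none higher (median -0.42, and -0.65 without CD8a KO library 2). Nr1h3, the oxysterol receptor LXRα, was at 381 and 659.9 in CD8a WT, 14.0 and 31.2 in CD8a KO, 109 and 209.9 in CD11b WT, and 171 and 148 in CD11b KO and differed by -4.59 ± 0.44 (adjusted p = 2.38e-07). Apoe, an apolipoprotein, was at 5306 and 9008 in CD8a WT, 1359.8 and 1615 in CD8a KO, 1906 and 2659 in CD11b WT, and 3094 and 2669 in CD11b KO and differed by -2.57 ± 0.36 (adjusted p = 5.55e-05). In both the CD8a KO libraries were lowest. The fit on 8 libraries called 3 of the 26. Of 53 lysosomal genes, 12 were lower and none higher, 43 had a negative sign and the median was -0.23. Without CD8a WT library 2 there were 8 lower genes. Ctsd, the protease cathepsin D on chromosome 7 (142375910-142387827), was at 2568 and 4527 in CD8a WT, 514 and 528 in CD8a KO, 1181 and 1719 in CD11b WT, and 1729 and 1512 in CD11b KO and differed by -2.89 ± 0.46 (adjusted p = 2.86e-04). Lamp1, a lysosomal membrane protein, was at 2968 and 3647 in CD8a WT, 1489 and 1338 in CD8a KO, 3119.7 and 3509 in CD11b WT, and 4204 and 3835 in CD11b KO and differed by -1.50 ± 0.24, and Lgmn, the protease legumain, by -2.04 ± 0.35. The CD8a KO libraries of Lamp1 lay below all others by a smaller ratio than for the macrophage genes. Ctsf, cathepsin F, stayed below 61 in all 8 libraries and differed by -3.84 ± 0.54.

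Promoter letters are shown for Mrc1, which had the smallest p, and for 4 lower genes that hold a searched motif and were chosen after their matches were seen. The 250 bases before the start are from RefSeq (GRCm38.p6, the same genome as mm10) and read 5′ to 3′ along the gene. Capitals mark matches, on either strand, to the core of the interferon response element (GAAA, any 2 bases, GAAA), the PU.1 motif GAGGAAGT, the TFEB and TFE3 motif TCACGTGA, or the E-box CACGTG that lies within it. The windows are chr2:14229164-14229413 (plus strand), chr15:3270517-3270766 (plus), chr1:171018676-171018925 (plus), chr7:142387828-142388077 (minus) and chr4:145246871-145247120 (minus).
Mrc1: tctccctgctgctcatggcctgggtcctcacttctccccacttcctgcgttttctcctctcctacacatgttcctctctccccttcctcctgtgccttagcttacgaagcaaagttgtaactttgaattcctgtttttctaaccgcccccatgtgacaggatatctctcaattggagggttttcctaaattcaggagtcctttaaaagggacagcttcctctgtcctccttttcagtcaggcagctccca
Sepp1: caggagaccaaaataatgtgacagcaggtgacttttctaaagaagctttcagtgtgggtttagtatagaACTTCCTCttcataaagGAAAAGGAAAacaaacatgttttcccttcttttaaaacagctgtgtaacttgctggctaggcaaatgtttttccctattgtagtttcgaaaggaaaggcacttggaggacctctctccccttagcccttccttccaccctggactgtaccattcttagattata
Fcgr4: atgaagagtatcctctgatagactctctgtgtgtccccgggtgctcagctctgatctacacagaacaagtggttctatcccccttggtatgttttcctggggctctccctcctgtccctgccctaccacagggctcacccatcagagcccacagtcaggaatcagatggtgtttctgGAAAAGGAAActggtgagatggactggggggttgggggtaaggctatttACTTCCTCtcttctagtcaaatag
Ctsd: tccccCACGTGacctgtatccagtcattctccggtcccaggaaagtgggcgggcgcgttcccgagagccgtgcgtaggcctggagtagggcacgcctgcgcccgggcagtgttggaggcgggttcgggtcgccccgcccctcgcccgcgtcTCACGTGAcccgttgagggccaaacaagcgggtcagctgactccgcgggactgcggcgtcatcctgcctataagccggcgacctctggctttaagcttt
Tnfrsf1b: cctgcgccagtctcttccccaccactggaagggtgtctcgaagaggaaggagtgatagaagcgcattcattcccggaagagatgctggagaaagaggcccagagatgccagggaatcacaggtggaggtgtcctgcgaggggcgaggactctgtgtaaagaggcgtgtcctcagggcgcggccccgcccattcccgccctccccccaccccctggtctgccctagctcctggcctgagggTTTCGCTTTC

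Sepp1 and Fcgr4, which encodes an activating IgG receptor, hold both the interferon element core and the PU.1 motif in their windows. The Ctsd window holds the TFEB motif and a second E-box, and the Tnfrsf1b window ends in an interferon element core. Of the 300 lower genes 235 had a window, and 21 of them (8.94%) held the interferon element core, against 326 of 9639 windows of all tested genes (3.38%). The PU.1 motif was in 10 (4.26%, against 3.22%), the E-box in 24 (10.2%, against 9.99%) and the TFEB motif in 1 (0.426%, against 1.89%). Of the 25 higher genes 17 had a window, with 1 interferon element core, 2 PU.1 motifs and no E-box. These shares are a description without a test, and a match does not show binding. Fcgr4, which was on the macrophage list and was chosen after its values were seen, was at 194 and 175 in CD8a WT, 38.2 and 51.6 in CD8a KO, 99.6 and 180.3 in CD11b WT, and 191 and 109 in CD11b KO and differed by -2.14 ± 0.38 (adjusted p = 0.00136). That call did not pass in the fit on 8 libraries (adjusted p = 0.0585).

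The 34 lower genes that rose in CD11b DCs did not pass in CD8a DCs, which does not show that they were unchanged there. Ifi204, an interferon-inducible DNA sensor on chromosome 1 (173747293-173767069), was at 128 and 192 in CD8a WT, 78.2 and 69.7 in CD8a KO, 65.5 and 108 in CD11b WT, and 308 and 295 in CD11b KO. Both CD11b KO libraries exceeded the 6 others, the rise was 1.83 (adjusted p = 0.00343), the CD8a effect -1.07 (adjusted p = 0.0525) and the difference -2.90 ± 0.46 (adjusted p = 2.86e-04). Itgad encodes integrin αD, known from red pulp macrophages, and lies on chromosome 7 (128173933-128205504). It was at 547 and 1072 in CD8a WT, 189.9 and 285 in CD8a KO, 92.4 and 128 in CD11b WT, and 690.4 and 749 in CD11b KO, which rose by 2.71 in CD11b DCs (adjusted p = 0.00707) and had a CD8a effect of -1.72 that did not pass (adjusted p = 0.0554). The difference was -4.43 ± 0.74 (adjusted p = 5.66e-04). Itga5, the α5 chain of a fibronectin receptor, was at 232 and 319 in CD8a WT, 237 and 299 in CD8a KO, 104 and 107 in CD11b WT, and 223 and 186 in CD11b KO. Its CD8a libraries overlapped between genotypes while its CD11b KO libraries were above CD11b WT, with a difference of -0.97 ± 0.20 (adjusted p = 0.00449, and 0.191 in the fit on 8 libraries).

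Csf2rb2, the mouse IL-3 receptor β chain, was at 717 and 494 in CD8a WT, 759 and 704 in CD8a KO, 465 and 329 in CD11b WT, and 1143 and 1065 in CD11b KO. It shares most of its sequence with Csf2rb, and how reads common to both were assigned is not given in the sources used here. It rose by 1.49 in CD11b DCs (adjusted p = 4.50e-05) and differed by -1.20 ± 0.26 (adjusted p = 0.00742). Without CD8a WT library 1 or CD11b WT library 2 the difference was -0.93 and -0.95, and neither passed. Tnfrsf1b, the TNF receptor 2 gene on chromosome 4 (145212368-145246870), was at 1172 and 1149.5 in CD8a WT, 866 and 975 in CD8a KO, 2701 and 2333 in CD11b WT, and 3919 and 3479 in CD11b KO and differed by -0.89 ± 0.18 (adjusted p = 0.0051). Atp6v0a1, a subunit of the lysosomal proton pump, differed by -1.25 ± 0.24 (adjusted p = 0.00263). Maz, a zinc finger transcription factor, was at 703 and 759 in CD8a WT, 665 and 795 in CD8a KO, 348 and 262 in CD11b WT, and 717 and 689.7 in CD11b KO, and Trio, a guanine exchange factor for small GTPases, at 489.9 and 509 in CD8a WT, 397 and 432 in CD8a KO, 158 and 154 in CD11b WT, and 331 and 289 in CD11b KO. Both were chosen after their values were seen, and their CD8a effects were -0.01 and -0.27, with differences of -1.22 ± 0.20 and -1.25 ± 0.24.

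Of 28 genes of integrins and adhesion tested, 5 were lower and none higher, against 2.49% lower over all genes. The list median was 0.06 (from -0.28 without CD11b KO library 1 to 0.08 without CD8a KO library 2). Itgb5, the β5 integrin chain, was at 264 and 574 in CD8a WT, 41.9 and 27.6 in CD8a KO, 59.2 and 135 in CD11b WT, and 199 and 122 in CD11b KO and differed by -4.27 ± 0.46 (adjusted p = 1.63e-06). Of 34 growth factor receptors and signalling genes, 4 were lower and none higher, and 6 rose in CD11b DCs. Over all genes 2.49% were lower and 1.44% rose in CD11b DCs. Without CD8a WT library 1 or CD11b WT library 2 the lower genes were 2. Csf3r, the G-CSF receptor, was at 60.0 and 86.2 in CD8a WT, 3.72 and 1.20 in CD8a KO, 186 and 237 in CD11b WT, and 374 and 335 in CD11b KO and differed by -5.25 ± 0.47 (adjusted p = 7.11e-08). Csf3r was near 0 in CD8a KO and highest in CD11b KO.

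Angptl7 and Tnfrsf1b, on the list of genes near Mtor, both differed with a lower effect in CD8a DCs. Angptl7, a secreted angiopoietin-like protein, lies on chromosome 4 (148495181-148500462) within the span of Mtor (148448582-148557685). It was at 18.8 and 21.3 in CD8a WT, 43.7 and 64.9 in CD8a KO, 2.69 and 9.31 in CD11b WT, and 341 and 300.2 in CD11b KO. It rose by 5.70 in CD11b DCs (adjusted p = 7.11e-06) and its value in CD8a DCs was 1.37 (adjusted p = 0.215), a difference of -4.33 ± 0.84 (adjusted p = 0.00314). The strand setting of the count is not given in the sources used here, so reads of Angptl7 and Mtor cannot be told apart with certainty.

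The 25 genes with a higher KO effect in CD8a DCs were mostly on none of the gene lists. Gzma was on the list of NK cell markers. Pde3b, a phosphodiesterase that degrades cyclic AMP, lies on chromosome 7 (114415222-114537938) and was at 129 and 149 in CD8a WT, 322 and 281 in CD8a KO, 118 and 152 in CD11b WT, and 127 and 57.3 in CD11b KO. Both CD8a KO libraries exceeded the 6 others, and the difference was 1.75 ± 0.35 (adjusted p = 0.00425, and 0.1 in the fit on 8 libraries). Inpp5b, a phosphoinositide 5-phosphatase on chromosome 4 (124741827-124801511), was at 666 and 669 in CD8a WT, 1008 and 1017 in CD8a KO, 1205 and 1137 in CD11b WT, and 895 and 841 in CD11b KO. It rose by 0.60 in CD8a DCs, its libraries did not overlap in either subset, and it differed by 1.03 ± 0.23 (adjusted p = 0.0095, and 0.0512 without CD11b KO library 2). Gcnt2, an enzyme of branched poly-N-acetyllactosamine chains, was at 537 and 344 in CD8a WT, 648 and 889 in CD8a KO, 1131 and 802 in CD11b WT, and 816 and 717 in CD11b KO and differed by 1.13 ± 0.26 (adjusted p = 0.0158). Atp8b4, a phospholipid-transporting ATPase, was at 441 and 405 in CD8a WT, 653 and 507 in CD8a KO, 946 and 933 in CD11b WT, and 713 and 739 in CD11b KO, higher in CD8a KO than CD8a WT and lower in CD11b KO than CD11b WT. Its difference was 0.81 ± 0.19 (adjusted p = 0.0163) with neither single effect passing. Kcne3, a potassium channel subunit, was at 0 in both CD8a WT libraries and at 5.58 and 4.80 in CD8a KO, so its value rests on few reads and on the pseudocount. The Gcnt2 call was lost without CD8a WT library 2, CD8a KO library 2, CD11b WT library 1 or CD11b KO library 2 (differences of 0.81 to 1.46, adjusted p of 0.0012 to 0.13). The Atp8b4 call was lost without CD8a WT library 2, CD8a KO library 1, CD11b WT library 1 or CD11b KO library 1 (differences of 0.63 to 1.00, adjusted p of 0.00492 to 0.157), and the Kcne3 call without CD8a KO library 1, CD11b WT library 1 or CD11b KO library 2 (differences of 2.94 to 3.90, adjusted p of 0.0138 to 0.101).

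Further higher genes were Eif3e, an initiation factor subunit at 0.55 ± 0.14, Rars, the arginyl-tRNA synthetase at 0.70 ± 0.18, Rae1, an mRNA export factor at 0.76 ± 0.19, and Smu1, a splicing factor at 0.63 ± 0.16. Eif3e was at 2058 and 2178 in CD8a WT, 3262 and 3025 in CD8a KO, 2223 and 2583 in CD11b WT, and 2456 and 2397 in CD11b KO, with both CD8a KO libraries above the 6 others. Dpep2, a dipeptidase that acts on leukotriene D4, was at 295 and 218 in CD8a WT, 677 and 679 in CD8a KO, 347 and 235 in CD11b WT, and 402 and 405 in CD11b KO and differed by 0.92 ± 0.24. The others were Thnsl1 at 2.72 ± 0.64, Agtpbp1, a tubulin deglutamylase, at 1.20 ± 0.30, Atxn10 at 0.58 ± 0.14, and Zdhhc7, a palmitoyltransferase, at 0.95 ± 0.25. Their adjusted p lay between 0.0174 and 0.0436. These 9 genes all lost their calls without CD11b KO library 1, where their adjusted p lay between 0.0689 and 0.196. All but Thnsl1 and Agtpbp1 also lost them in the fit on 8 libraries and with edgeR. Each of these 9 calls was lost without other single libraries as well. Of 17 alternatives, 9 each lost the calls of Eif3e, Rars, Atxn10 and Zdhhc7, and 8 each those of Smu1 and Dpep2. Rae1 and Agtpbp1 lost theirs under 7 each, and Thnsl1 under 4. Gzma, a granzyme of cytotoxic cells, was at 0 and 0 in CD8a WT, 85.6 and 21.6 in CD8a KO, 19.7 and 67.7 in CD11b WT, and 71.0 and 3.89 in CD11b KO, so the CD11b libraries were scattered and the call was lost without most single libraries (differences of 4.54 to 8.42, adjusted p of 0.0101 to 0.347). The count of 25 ranged from 9 without CD8a KO library 1 to 55 without CD8a WT library 1, and edgeR on the recovered reads called 7.

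**Figure D4:**
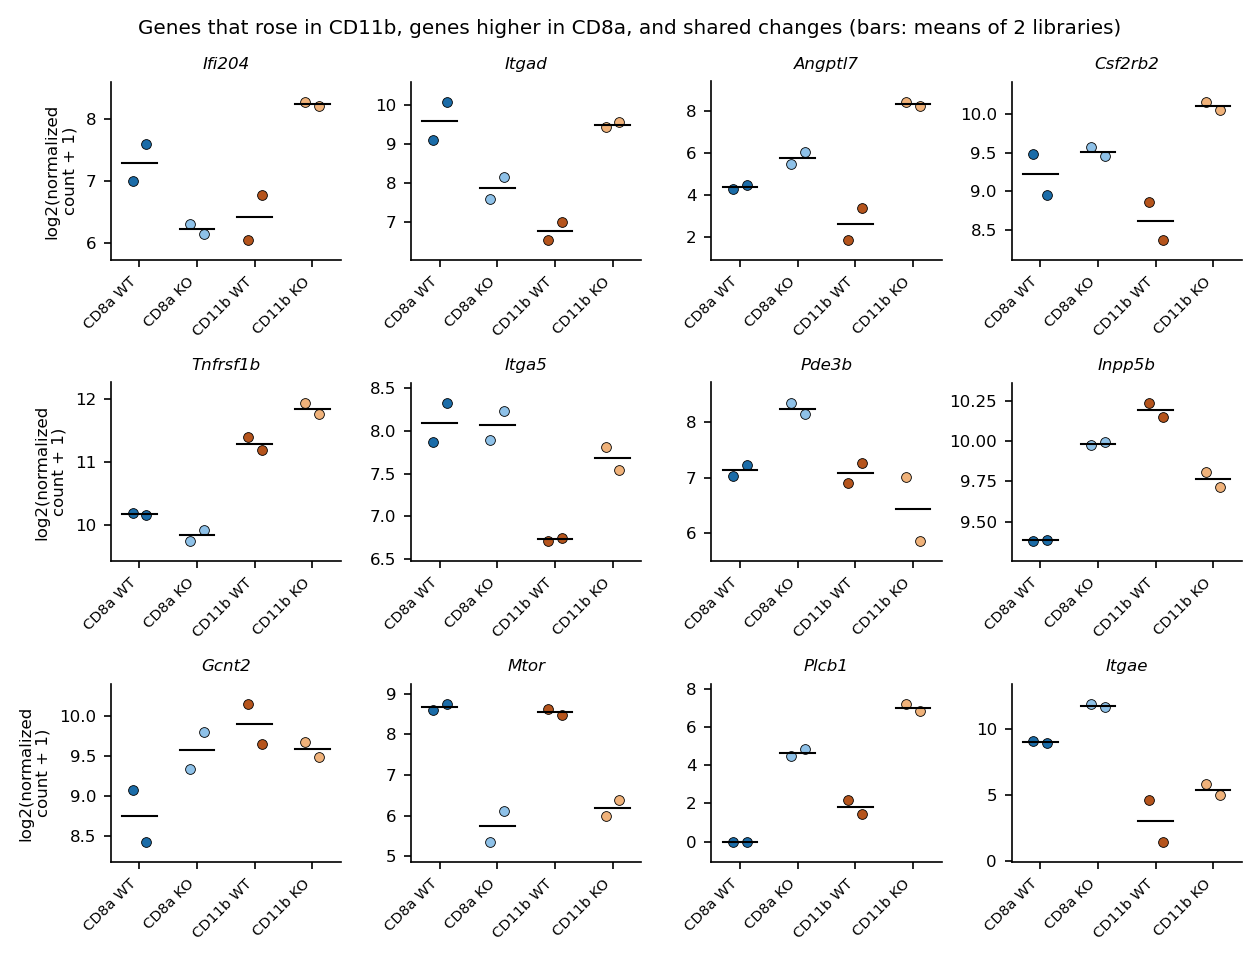
Levels of 12 genes as log2(normalized count + 1), 1 point per library with a bar at the group mean: 6 lower genes that rose in CD11b DCs, 3 higher genes, and Mtor, Plcb1 and Itgae. Mtor lies at or below 82.6 in all KO libraries and at or above 355 in all WT libraries, and Plcb1 is at 0 in CD8a WT and highest in CD11b KO.

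Some changes were called in both subsets in the same direction, and 2 of those differed in size. In both, 23 genes rose, and none of them differed. They are 11.3% of the CD8a rises, where 1.44% of all genes rose in CD11b DCs. They are 13.2% of the CD11b rises, where 1.68% of all genes rose in CD8a DCs. Of these 23, 4 are the Y-linked genes, for which sex and genotype cannot be told apart. Plcb1, a phospholipase C that releases calcium through inositol trisphosphate, was at 0 and 0 in CD8a WT, 21.4 and 27.6 in CD8a KO, 3.59 and 1.69 in CD11b WT, and 145 and 113 in CD11b KO. It rose by 4.66 and 5.20, and the difference of -0.54 ± 0.55 had a 95% interval of -1.68 to 0.60 (adjusted p = 0.874). Both values rest on WT levels near 0 and depend on the pseudocount. Socs3, a feedback inhibitor of cytokine receptors chosen after its values were seen, was at 55.7 and 82.1 in CD8a WT, 137 and 141 in CD8a KO, 272 and 197 in CD11b WT, and 579 and 571 in CD11b KO. It rose by 1.02 and 1.31, and the difference of -0.28 ± 0.31 did not pass. Smad7, an inhibitor of TGF-β signalling chosen in the same way, rose by 1.15 and 1.33, with a difference of -0.18 ± 0.39. Larp1, a translation regulator bound by mTOR complex 1, rose by 0.53 and 0.86, with a difference of -0.33 ± 0.15 (adjusted p = 0.421). In both subsets 8 genes fell, among them Mtor. They are 25.8% of the CD11b falls, where 4.08% of all genes fell in CD8a DCs. They are 1.63% of the CD8a falls, where 0.257% of all genes fell in CD11b DCs. Acp5, an acid phosphatase, and Socs2, another cytokine signalling inhibitor, fell more in CD8a DCs, by 1.86 and 2.19 against 0.88 and 1.02. Their differences of -0.98 ± 0.26 and -1.17 ± 0.32 (adjusted p = 0.0375 and 0.0482) passed, with 1 library left out, only without CD8a WT library 1 or CD11b WT library 2 for Acp5 (differences of -1.38 to -0.59, adjusted p of 3.40e-04 to 0.244) and only without CD8a WT library 2 for Socs2 (differences of -1.52 to -0.83, adjusted p of 0.00942 to 0.247). Itgae, the αE integrin of cDC1, was at 547 and 493 in CD8a WT, 3745 and 3170.5 in CD8a KO, 23.3 and 1.69 in CD11b WT, and 53.8 and 31.1 in CD11b KO. It rose by 2.73 in CD8a DCs, and the difference of 0.35 ± 0.95 spanned -1.61 to 2.32.

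Of 12 subunits of the mTOR complexes none differed, with a median of 0.05 (from -0.11 without CD11b WT library 1 to 0.25 without CD8a WT library 1), and in each subset Mtor was the 1 gene that fell. Of 31 upstream regulators Flcn was lower, and of 24 downstream effectors Ulk1 was lower. Over all genes 2.49% were lower, so 1 in each of these lists is near the background. Flcn encodes folliculin, which acts on the RAG GTPases, and was at 417 and 476 in CD8a WT, 343 and 286 in CD8a KO, 613 and 444 in CD11b WT, and 711 and 672 in CD11b KO, with CD8a KO below and CD11b KO above the WT of its subset. Its difference was -0.91 ± 0.23 (adjusted p = 0.0268). Ulk1, the autophagy-starting kinase held back by mTOR, was at 272 and 178 in CD8a WT, 141 and 138 in CD8a KO, 229.7 and 110.0 in CD11b WT, and 287 and 257 in CD11b KO and differed by -1.43 ± 0.38 (adjusted p = 0.0453). Neither single effect of Flcn or Ulk1 passed, and both calls were lost without CD8a KO library 2, CD11b WT library 2 or either CD11b KO library. The Flcn call was also lost without CD8a WT library 2 (differences of -1.15 to -0.68, adjusted p of 0.0065 to 0.208), and the Ulk1 call without CD8a WT library 1 or CD8a KO library 1 (differences of -1.95 to -0.90, adjusted p of 0.00217 to 0.342). Ulk1 was also the 1 lower gene among 34 autophagy genes, whose median was -0.06 (from -0.12 without CD8a WT library 2 to -0.0026 without CD11b WT library 1).

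Ribosomal proteins (72 tested), ribosome biogenesis (32), oxidative phosphorylation (62), cholesterol synthesis (21), fatty acid synthesis (15) and cell cycle (49) had none in either direction. Their median differences were 0.18, 0.19, 0.14, 0.28, 0.09 and 0.15. These medians depended on single libraries. With 1 library left out, the ribosomal protein median ran from 0.12 without CD8a WT library 2 to 0.25 without CD8a WT library 1. That of oxidative phosphorylation ran from 0.0084 without CD11b WT library 2 to 0.24 without CD11b WT library 1, and that of cholesterol synthesis from 0.12 without CD11b WT library 1 to 0.47 without CD8a WT library 1. The fatty acid synthesis median ran from -0.00066 without CD11b WT library 1 to 0.14 without CD11b WT library 2, and the cell cycle median from -0.0011 without CD8a WT library 1 to 0.30 without CD11b WT library 1. For ribosomal proteins 68 of 72 had a positive difference, from medians of 0.26 in CD8a and 0.07 in CD11b DCs. Cholesterol synthesis genes had medians of -0.17 and -0.40, and 18 of 21 had a positive difference. Rpl3, a large-subunit protein with the smallest p of its list, differed by 0.42 ± 0.15 (adjusted p = 0.197). Glycolysis, the TCA cycle and fatty acid oxidation each held 1 lower gene, G6pdx, Idh1 and Ppargc1b, among 30, 23 and 23 tested. Over all genes 2.49% were lower, so 1 in each of these lists is near the background. The G6pdx call did not pass in the fit on 8 libraries (adjusted p = 0.0798). The Ppargc1b call was lost without CD8a WT library 2, CD8a KO library 1, CD11b WT library 1 or CD11b KO library 1 (differences of -4.53 to -2.24, adjusted p of 3.89e-04 to 0.159). Members of one list often share transcripts of similar length and abundance and are not independent.

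**Figure D5:**
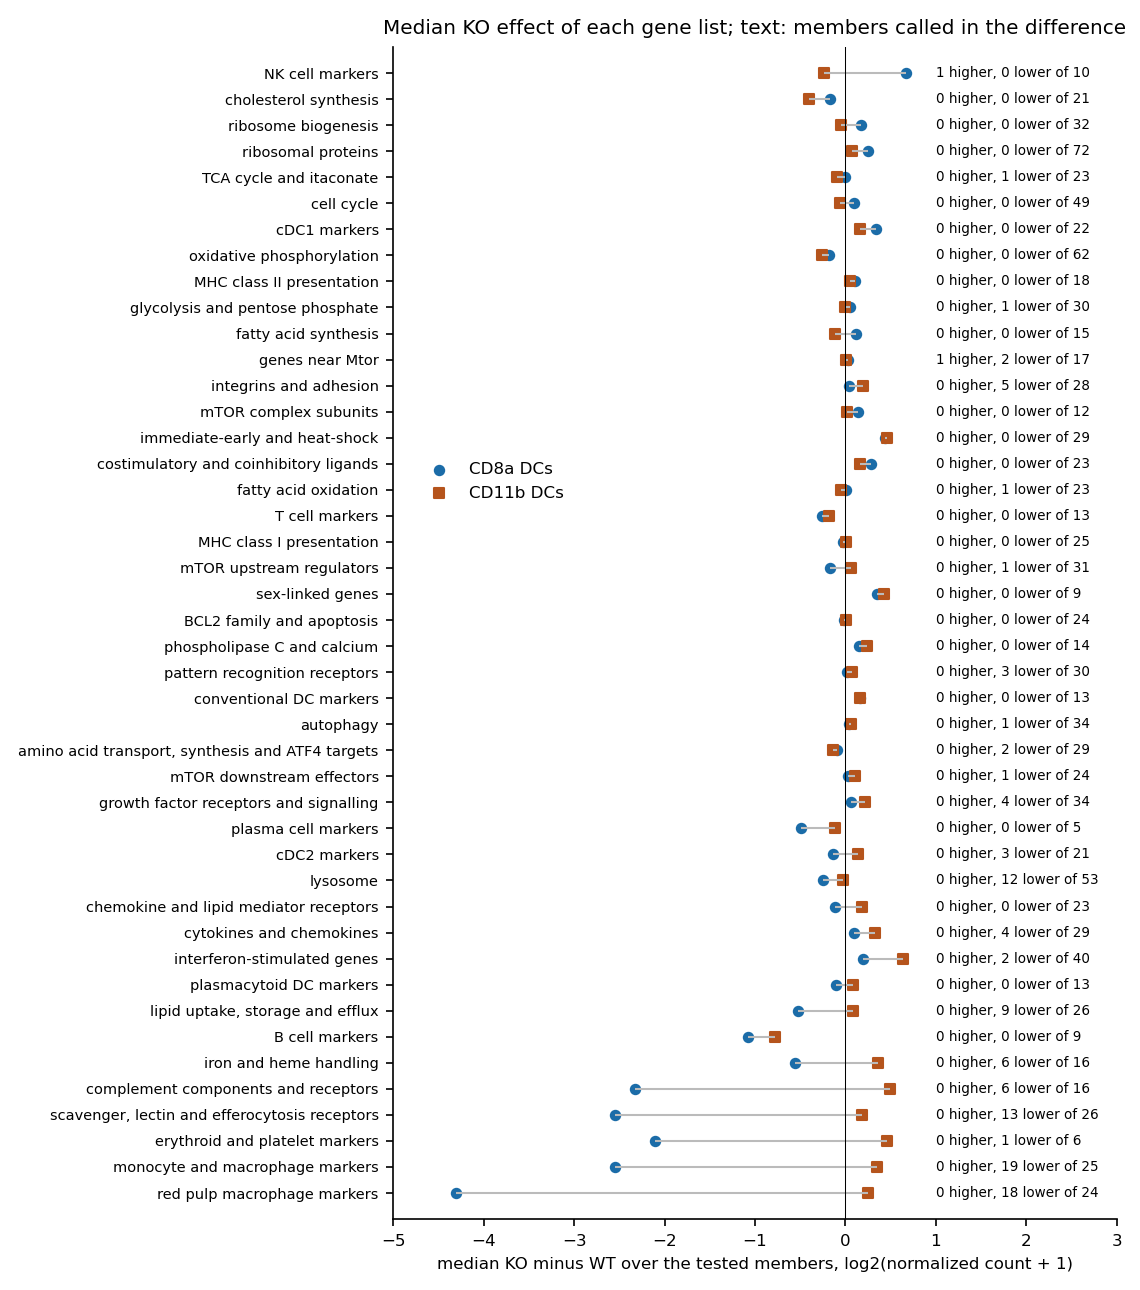
Median KO minus WT on the log2(normalized count + 1) scale over the tested members of each gene list with at least 5 tested genes, in CD8a DCs (blue circles) and CD11b DCs (brown squares), ordered by the median difference. Text at the right gives the members that differed between subsets; the red pulp macrophage list, at the bottom, has medians of -4.31 and 0.25 and 18 lower members.

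Interferon-stimulated genes had a positive median KO effect in both subsets, and few of them passed. The median of 40 tested genes was 0.64 in CD11b DCs and 0.20 in CD8a DCs, with 3 rises in each. Over all genes 1.44% rose in CD11b DCs and 1.68% in CD8a DCs. The median difference of the 40 genes was -0.35. That median was -0.64 without CD8a WT library 1, where 5 genes were lower, and -0.11 without CD8a WT library 2. It was -0.19 and -0.53 without CD11b WT library 1 and 2. Of the 40, Ifi204 and Gbp7 were lower and none was higher. Over all genes 2.49% were lower, so 2 of 40 is close to the background. Gbp7, a guanylate-binding GTPase, was at 86.5 and 151 in CD8a WT, 57.7 and 42.0 in CD8a KO, 219 and 186 in CD11b WT, and 349 and 322 in CD11b KO. It fell by 1.20 in CD8a DCs (adjusted p = 0.00555), the CD11b KO libraries lay above CD11b WT without passing, and it differed by -1.93 ± 0.37 (adjusted p = 0.00306). Ddx58, the RNA sensor RIG-I, differed by -1.17 ± 0.36 and Parp14, a mono-ADP-ribosyltransferase, by -0.85 ± 0.30, neither of which passed (adjusted p = 0.0969 and 0.176).

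Of 29 cytokines and chemokines, 4 were lower and none higher, and 2 were lower without CD8a WT library 2. The share over all genes was 2.49% lower. Csf1, the macrophage growth factor, was at 70.2 and 26.4 in CD8a WT, 5.58 and 2.40 in CD8a KO, 28.7 and 16.9 in CD11b WT, and 21.8 and 42.7 in CD11b KO and differed by -3.67 ± 0.62 (adjusted p = 6.22e-04, and 0.0784 in the fit on 8 libraries). Il1a, interleukin 1α, was at 56.5 and 104 in CD8a WT, 9.31 and 1.20 in CD8a KO, 7.18 and 26.2 in CD11b WT, and 17.2 and 16.5 in CD11b KO, and Osm, oncostatin M, at 2.57 and 9.12 in CD8a WT, 1.86 and 2.40 in CD8a KO, 60.1 and 57.6 in CD11b WT, and 145 and 142 in CD11b KO. Il1a fell in CD8a DCs, whereas Osm was higher in both CD11b KO than in both CD11b WT libraries. They differed by -4.29 ± 0.90 and -2.22 ± 0.47 (adjusted p = 0.00647 and 0.00689). The Osm difference was -1.47 without CD8a WT library 2 and then did not pass, and it did not pass in the fit on 8 libraries, with edgeR or with DESeq2 (adjusted p = 0.245, 0.305 and 0.083). The Il1a call was lost in the fit on 8 libraries, with edgeR, and without CD8a KO library 2 or CD11b WT library 1, where the differences were -3.17 and -3.42. Il15, which sustains T and NK cells, was at 276 and 283 in CD8a WT, 128 and 149 in CD8a KO, 93.3 and 64.3 in CD11b WT, and 81.3 and 117 in CD11b KO and differed by -1.33 ± 0.36 (adjusted p = 0.0453), a call that held only without CD11b WT library 1 or CD11b KO library 1 when 1 library was left out (differences of -1.60 to -1.07, adjusted p of 0.0267 to 0.283). Il1b was at 1303 and 881 in CD8a WT, 1994 and 2092 in CD8a KO, 2484 and 2642 in CD11b WT, and 2338 and 3041 in CD11b KO. Its libraries overlapped between CD11b genotypes, and the difference of 0.87 ± 0.41 did not pass (adjusted p = 0.436). Il6 and Il12b had differences of 0.15 ± 0.95 and 0.39 ± 0.68, with 95% intervals of -1.81 to 2.12 and -1.02 to 1.80. Il23a and Ccl17 did not reach the count minimum, with no library above 2.91 and 5.72.

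Between the cDC1 and cDC2 marker lists, only the cDC2 list held genes that differed, and none of its members passed within CD11b DCs. None of 22 tested cDC1 markers differed, and their median was 0.15 (from -0.13 without CD11b WT library 1 to 0.34 without CD11b WT library 2). Irf8, the transcription factor of cDC1, was at 16216 and 18506 in CD8a WT, 22491 and 21519.6 in CD8a KO, 1516 and 818 in CD11b WT, and 1615 and 1441 in CD11b KO, with a difference of -0.11 ± 0.28 (95% interval -0.69 to 0.47). Clec9a, a receptor for dead cells on cDC1, differed by -0.24 ± 0.49 (-1.26 to 0.78). Within CD8a DCs 2 cDC1 markers rose and none fell, and within CD11b DCs none passed. Of 21 cDC2 markers 3 were lower and none higher, against 2.49% lower over all genes. Within CD8a DCs 4 of the 21 fell and 2 rose, and within CD11b DCs none rose or fell. Over all genes 4.08% fell and 1.68% rose in CD8a DCs. Sirpa, the SIRPα receptor that binds CD47, was at 2646 and 4620.4 in CD8a WT, 854 and 1084 in CD8a KO, 9622 and 9781 in CD11b WT, and 14023 and 13671 in CD11b KO and differed by -2.37 ± 0.24 (adjusted p = 4.94e-07). Sirpa is also on the macrophage list, and its lowest libraries were CD8a KO. Zeb2, a transcriptional repressor needed for cDC2 and macrophages, was at 618 and 450.1 in CD8a WT, 192 and 240.2 in CD8a KO, 1009 and 962 in CD11b WT, and 1237 and 1028 in CD11b KO and differed by -1.49 ± 0.23, and Clec4a2, a DCIR lectin, by -1.63 ± 0.26 (adjusted p = 1.94e-04 and 3.16e-04). MHC class II presentation (18 tested), MHC class I presentation (25) and costimulatory ligands (23) had no differing gene.

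Lower and higher genes alike exceeded the share of all genes that were higher in WT alveolar macrophages than in WT lung CD11b DCs. The 6 WT lung libraries enter no term of the difference, but they enter the estimate of each gene's spread. Both contrasts came from the fit on 26 libraries and share that estimate, so their calls are not independent. In the lung contrast, 2835 of the 12049 genes (23.5%) were higher in alveolar macrophages than in lung CD11b DCs. Of the 300 lower genes 166 (55.3%) were, and of the 25 higher genes 11 (44%). The median of alveolar macrophages minus lung DCs was 0.73 on the log2 scale for the lower and 0.45 for the higher genes, and -0.02 over all genes.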

How the data were processed

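RNA from sorted spleen dendritic cells was sequenced after library preparation with Clontech and Nextera XT reagents, per the labels' protocols. Reads were aligned to mm10 with STAR 2.3.1s, counted with HTSeq and normalized with DESeq2 1.10.1, per the submitters' processing notes. The annotation and the strand setting of the count are not given in the sources used here. Deposited was a signal per gene symbol and library, the normalized count, in which the authors had divided each read count by a size factor. These factors, 0.833 to 1.18 in the spleen libraries, were recovered from the steps between values, and 100% of values became whole reads within 1e-06 reads.

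The design assumed this signal, so log2(normalized count + 1) was tested with limma 3.58.1 in R 4.3.3. A mean was fitted for each of 10 groups over 26 libraries, moderated by empirical Bayes along the mean-variance trend, and the contrast was (CD8a KO - CD8a WT) - (CD11b KO - CD11b WT). Benjamini-Hochberg adjustment covered all 12049 genes. The steps were tested on simulated data. Alternatives were pseudocounts of 0.25 and 8, no filter, a minimum of 50, the 8 spleen libraries alone, sample weights, quantile normalization, edgeR 4.0.16 and DESeq2 1.42.0 on recovered reads, and each library left out.

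The genes and the 47 gene lists (32 of functions, 15 of cell type markers) were chosen with earlier results of these data known, and lists were counted, not tested. The background for every list count is the share over all genes, 2.49% lower and 0.207% higher. Named were Mtor, 5 cytokines, the 15 genes with the smallest p in each direction with a group mean of at least 50, up to 8 genes called in opposite directions, and up to 4 members with the smallest p of each list described. Some results for genes this rule covers are not reported here. Outside this rule, Spic, Igf1, Fcgr4, Atp6v0a1, Maz, Trio, Socs3, Smad7, Acp5, Itgae, Irf8, Clec9a, Xcr1, Xist and Hgf were chosen after their values were seen. Of the symbols, 11998 matched a RefSeq gene and 9639 had a promoter sequence.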

Additional observations from a re-analysis of the deposited data

Results flagged for a closer look

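The genes below were marked for a closer look because a test of the difference itself, the KO effect in CD8a DCs minus that in CD11b DCs, passed at an adjusted p under 0.05 in limma. Each value is that difference on the log2(normalized count + 1) scale, and the report gives the error and the levels of most of them. C3, which also differed, is left out of this list. The most negative values were -7.52 for Vnn3, -6.24 for Fcgr1, -5.83 for Niacr1, -5.75 for Pilrb1, -5.57 for C1qa, -5.31 for Hgf, -5.25 for Csf3r, -5.04 for Mrc1 and -5.04 for Spic. Next came -4.85 for Pld3, -4.83 for Axl, -4.79 for Slc40a1, -4.78 for Igf1, -4.77 for Tlr8, -4.72 for C1qb, -4.67 for C1qc, -4.61 for Lpl and -4.59 for Nr1h3. The following genes had -4.43 for Hmox1, -4.43 for Itgad, -4.33 for Angptl7, -4.33 for Clec4a3, -4.29 for Il1a, -4.27 for Itgb5, -4.26 for Fcgr3, -3.99 for Ms4a6d and -3.89 for Vcam1. Values a little nearer to 0 were -3.84 for Ctsf, -3.67 for Csf1, -3.67 for Dok3, -3.57 for Emr1, -3.41 for Csf1r, -3.39 for Ppargc1b, -3.28 for Asns, -3.26 for Cd302 and -3.15 for Sepp1. Further along were -2.90 for Ifi204, -2.89 for Ctsd, -2.86 for Blvrb, -2.63 for Lrp1, -2.63 for Tlr4, -2.57 for Apoe, -2.46 for Fndc3b, -2.37 for Sirpa and -2.27 for Cd14. Then followed -2.22 for Osm, -2.14 for Fcgr4, -2.04 for Lgmn, -1.93 for Gbp7, -1.68 for Nupr1, -1.67 for Idh1, -1.63 for Clec4a2, -1.50 for Lamp1 and -1.49 for Zeb2. Smaller negative values were -1.45 for Igsf8, -1.43 for Ulk1, -1.33 for Il15, -1.25 for Atp6v0a1, -1.25 for Trio, -1.22 for Maz, -1.20 for Csf2rb2, -1.17 for Socs2 and -1.13 for Slc48a1. Nearer still to 0 lay -0.98 for Acp5, -0.97 for Itga5, -0.91 for Flcn, -0.89 for Tnfrsf1b and -0.73 for G6pdx.

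The positive values, where the KO effect was higher in CD8a DCs, were 6.48 for Gzma, 3.42 for Kcne3, 2.72 for Thnsl1, 1.75 for Pde3b, 1.20 for Agtpbp1, 1.13 for Gcnt2, 1.03 for Inpp5b and 0.95 for Zdhhc7. The remaining ones were 0.92 for Dpep2, 0.81 for Atp8b4, 0.76 for Rae1, 0.70 for Rars, 0.63 for Smu1, 0.58 for Atxn10 and 0.55 for Eif3e.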

How the results depend on the processing

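The count of 325 differing genes became 209 in the fit on the 8 spleen libraries, which estimates each gene's spread from 4 degrees of freedom, and 159 of them were among the 325. Other settings gave 237 to 403, from edgeR on the recovered reads to sample weights, and leaving out 1 library gave 220 to 376. The 300 lower genes became 190 in the 8-library fit and 204 to 321 with 1 library left out. The 25 higher genes became 44 without a filter, 15 at a minimum of 50, 45 with sample weights, 59 after quantile normalization, 7 with edgeR, and 9 to 55 with 1 library left out. Calls within CD8a DCs ranged from 372 to 686 with 1 library left out, from 695. Calls within CD11b DCs became 669 with sample weights, 364 with DESeq2 and 28 to 249 with 1 library left out, from 205. The causes of these shifts were not tested, except that fewer samples entered when a library was left out. Of 83 differing genes named, 49 passed under every alternative, 32 were lost under at least 1, and none changed sign. C3, which is also named as differing, is not among these 83 and was not checked in this way. The other 2, Vnn3 and Ctsf, did not reach the minimum of 50 and passed under the rest. The fit on 8 libraries lost 29 of the 83 calls, edgeR 16, a pseudocount of 8 lost 5 (Asns, Gzma, Kcne3, Nupr1 and Socs2) and quantile normalization 5 (Atxn10, Il15, Kcne3, Socs2 and Ulk1). DESeq2 lost Asns, Nupr1 and Osm, no filter lost Gzma, Socs2 and Ulk1, the minimum of 50 lost Gzma and Socs2, and sample weights lost Gzma and Il15. No paired analysis was possible because the titles number all libraries in 1 series, so no library shares a number with one of another group, and the replicate numbers used here were given in accession order. Where an arm kept 1 library, it was assumed to vary like the other groups. With 7.37 to 10.1 M reads, genes under a normalized count of 10 in all but 1 spleen library were not tested.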

Other observations

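Of 30 pattern recognition receptors tested, 3 were lower and none higher, against 2.49% lower over all genes. The list median was -0.06 (from -0.16 without CD8a KO library 2 to 0.07 without CD8a KO library 1), and 13 members had a positive difference. Tlr8, an endosomal receptor for RNA, was at 44.5 and 74.0 in CD8a WT, 0.931 and 4.80 in CD8a KO, 43.1 and 38.1 in CD11b WT, and 87.0 and 46.6 in CD11b KO and differed by -4.77 ± 0.58 (adjusted p = 8.99e-06). Tlr4 and Cd14, the endotoxin receptor and its partner, differed by -2.63 ± 0.41 and -2.27 ± 0.36 (adjusted p = 2.27e-04 and 3.13e-04). Cd14 was at 353 and 379 in CD8a WT, 73.5 and 93.7 in CD8a KO, 67.3 and 92.3 in CD11b WT, and 89.3 and 84.5 in CD11b KO, so that its CD8a WT libraries stood above the 6 others. The Tlr4 call did not pass in the fit on 8 libraries (adjusted p = 0.0574).

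B cell markers had a negative difference in all 9 tested members, with a median of -0.87, and none passed. That median was -0.39 and -0.41 without CD8a WT library 1 and CD11b WT library 2, and -1.32 without CD11b WT library 1. Their medians were -1.08 in CD8a DCs and -0.78 in CD11b DCs. The summed normalized count of 11 B cell markers was 1687 and 1326 in CD8a WT, 705 and 665 in CD8a KO, 3354 and 3458 in CD11b WT, and 2136 and 2060.4 in CD11b KO. Among genes of amino acid transport and synthesis, Nupr1, a stress-induced chromatin protein, and Asns, the asparagine synthetase, differed by -1.68 ± 0.37 and -3.28 ± 0.77 (adjusted p = 0.00909 and 0.0164). The Nupr1 call was lost without CD8a KO library 1 or CD11b WT library 1 (differences of -2.02 to -1.34, adjusted p of 0.00269 to 0.0852), and the Asns call without CD8a WT library 2, CD8a KO library 2, CD11b WT library 1 or CD11b KO library 1 (differences of -4.07 to -2.49, adjusted p of 0.00373 to 0.136). Both calls were also lost with a pseudocount of 8, in the fit on 8 libraries, with edgeR and with DESeq2.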
